A study of Mus musculus with 5 samples.

Results

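Expression of 9 genes of the early embryo was measured in Folr1-/- and Folr1+/+ mouse embryos at gestation day 9.5. They are Pou5f1, Tdgf1, Utf1 and Sall4 of the pluripotency network, the heterochronic genes Lin28a and Hmga2, and the DNA methyltransferase genes Dnmt3a, Dnmt3b and Dnmt3l, and the question asked of them is whether Folr1-/- embryos look younger. The members were found by gene symbol, as probe sets annotated to 1 of these symbols and no other. All 9 were found, with 18 probe sets of the 20380 that carry 1 symbol, among 12393 genes on the array. For each gene the brightest probe set, by the mean of log2(signal + 16) over the arrays, stands for the gene, and the others are given beside it.

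The Folr1-/- group has 2 arrays and the Folr1+/+ group has 3, each labelled a biological replicate of whole C57BL6J embryos, with no word on whether 1 embryo or a pool was used per array. Folr1 encodes a folate receptor that carries folate into cells. Folr1-/- embryos came from Folr1+/- parents whose dams ate a diet with added folate, while no separate diet is named for the Folr1+/+ litters, so that an effect of diet and one of genotype cannot be told apart if the diets differed. Decidua, chorion and amnion had been removed, and nothing is said of the yolk sac. RNA was amplified before hybridisation to Affymetrix Mouse Genome 430A arrays with a biotin label.

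Pluripotency factors hold the cells of the early epiblast in a state from which every tissue of the embryo can form. Some of their genes, Pou5f1 among them, are shut off as gastrulation ends, apart from the primordial germ cells. Others, such as Sall4 and Tdgf1, are also used later in other tissues. Heterochronic genes set the timing of development. Lin28a blocks the maturation of let-7 microRNAs, and mature let-7 represses Lin28a and Hmga2, so that both fall as tissues mature. The de novo methyltransferases place methyl groups on CpG sites when the epiblast leaves pluripotency, and Dnmt3b is the form that prevails in the epiblast, while Dnmt3a prevails later.

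Facts of the arrays that touch these genes come first. Median signals were 33.3 and 33.0 for the Folr1-/- arrays, against 35.2, 38.3 and 35.7 in the Folr1+/+ arrays. The Actb 3'/5' ratio, a sign of RNA length, was 30.5 and 22.8 in the Folr1-/- arrays and 21.1 to 39.5 in the Folr1+/+ arrays. That of Gapdh was 78.1 and 73.1 in the Folr1-/- arrays and 67.2 to 104 in the Folr1+/+ arrays. Signal from the 3' end was thus far above that from the 5' end on every array. Its part where probe sets of 1 gene differ was not tested. The probe set of Folr1 gave 50.2 and 41.8 in the Folr1-/- arrays, against 57.0, 50.01 and 40.2 in the Folr1+/+ arrays, with overlapping groups. Since the deleted stretch of the gene is unknown here, this signal is no check of the genotype. Xist, made from the inactive X chromosome, gave 419 and 770 in the Folr1-/- arrays, against at most 35.7 in the Folr1+/+ arrays. The Y-linked Eif2s3y had 104 and 3.13 in the Folr1-/- arrays, against 300.3 to 372 in the Folr1+/+ arrays, so that Folr1-/- replicate 1 carried both signals, unlike the other arrays. Sex-linked signal thus differs between the groups, and an effect of sex and one of genotype cannot be told apart here. Calls lost without Folr1-/- replicate 1 are given below with the values.

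The 9 genes did not move as a block. Pou5f1 and Tdgf1 were higher in both Folr1-/- arrays than in every Folr1+/+ array, at dim signals. Dnmt3b was higher by 1 of its 2 probe sets, and Sall4 by its dimmer probe set of 2. Lin28a, Hmga2 and Dnmt3a did not pass by their brightest probe sets, and Utf1 and Dnmt3l were dim in every array. Each difference is the mean log2(signal + 16) in Folr1-/- less that in Folr1+/+, printed with its SE (standard error). Differences were tested with limma over the 7436 genes at or above the 40th percentile of mean log2 signal, with a threshold of 0.05 on the Benjamini-Hochberg adjusted p. Of the 9 genes 5 lay above this filter, and 1 of the 5 rose, 0 fell and 4 did not pass. Over all tested genes 15% passed, 8.19% higher and 6.79% lower, so that 1 of 5 is near the background. With median centring the split over all genes was 769 higher and 341 lower, against 609 higher and 505 lower here. The median difference of the 5 tested genes was 0.13, against -0.02 over all tested genes. The groups did not overlap in 4 of the 9 genes, each higher in Folr1-/-, and in 40.2% of all genes on the array, 16.8% higher and 23.3% lower.

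**Figure D1:**
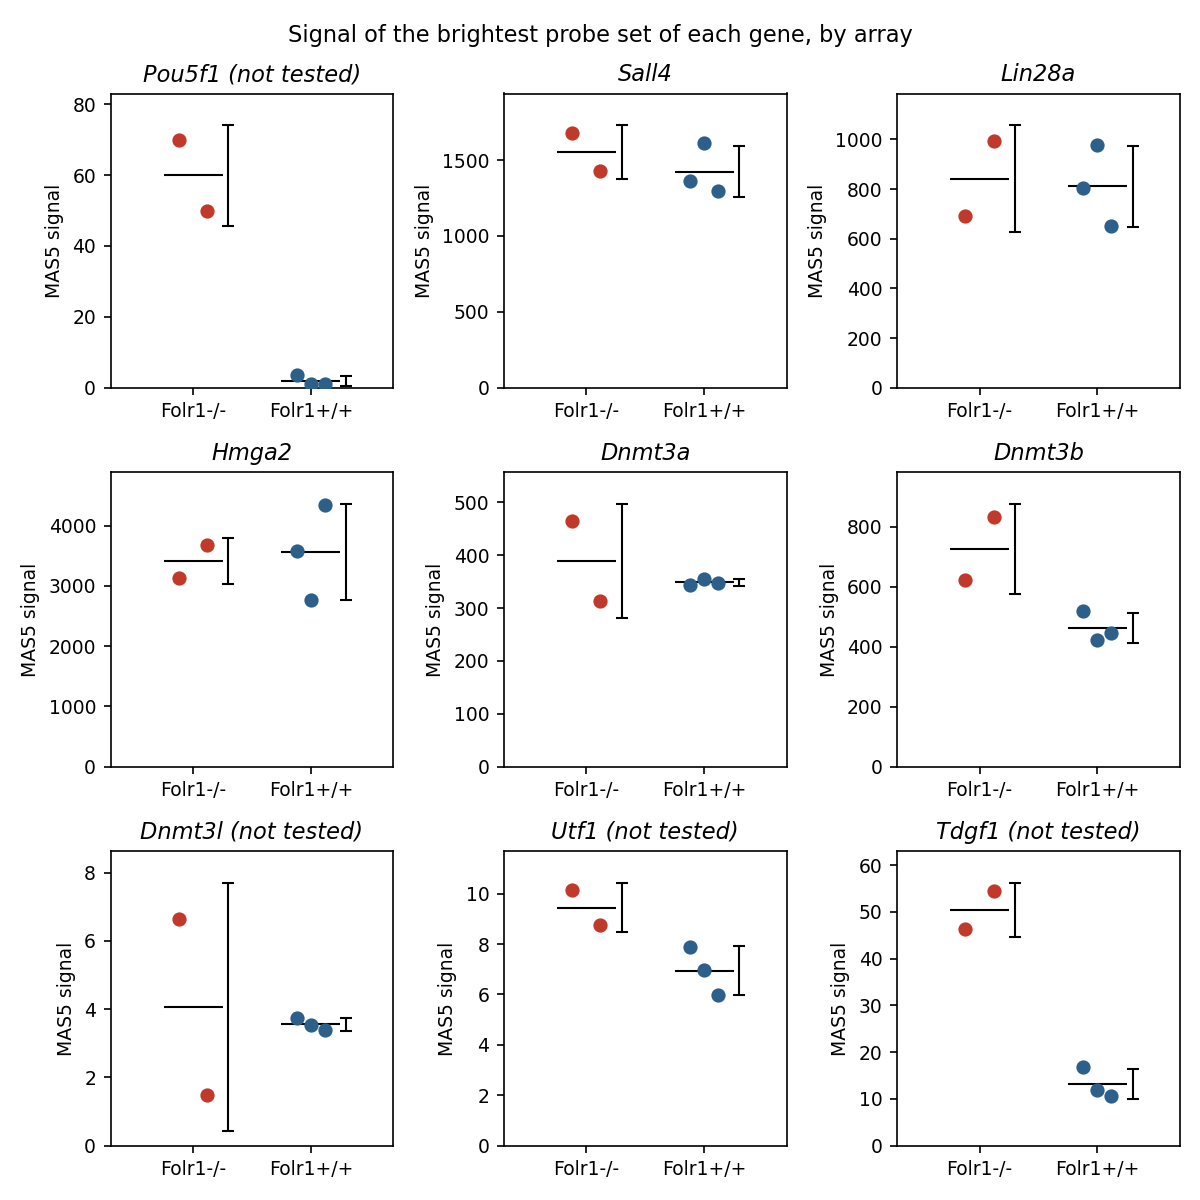
MAS5 signal (linear axis from 0) of the brightest probe set of each of the 9 genes in the 2 Folr1-/- arrays (red) and the 3 Folr1+/+ arrays (blue). Horizontal lines are group means and the bars beside them are the mean ± SD; Pou5f1, Tdgf1, Utf1 and Dnmt3b have groups that do not overlap, and "not tested" marks genes below the filter.

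Pou5f1 encodes OCT4, the POU transcription factor at the centre of the pluripotency network. Its only probe set read 70.0 and 49.9 in the Folr1-/- arrays, against 3.55, 1.05 and 0.964 in the Folr1+/+ arrays. Both Folr1-/- arrays lay above all Folr1+/+ arrays, where the signal was close to the bottom of the scale. The gene lay at the 27.6th percentile of mean log2 signal and was left out of the main test. In a limma fit with no filter, over 12393 genes, it rose by 2.08 ± 0.21 (SE, adjusted p = 0.0016). In that fit 6.03% of genes passed, 3.52% higher. The size depends on the pseudocount, being 4.51 with a pseudocount of 1 and 0.91 with 64, and it was 1.89 without Folr1-/- replicate 1 (adjusted p = 0.027) and 2.27 without Folr1-/- replicate 2 (adjusted p = 0.015). The gene table lists 7 copies of Pou5f1 in the genome as related sequences or pseudogenes, and whether the probe set also matches any of them was not tested, so the source of the signal within this family is uncertain.

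Tdgf1, also called Cripto, encodes the co-receptor through which NODAL signals in the epiblast, the primitive streak and later the heart. Its only probe set read 46.3 and 54.5 in the Folr1-/- arrays, against 16.9, 11.9 and 10.7 in the Folr1+/+ arrays. The groups were clear of each other, with the Folr1+/+ values near the pseudocount. It lay at the 36.1th percentile and so just under the filter for genes, and just over that for probe sets. Among 12228 probe sets tested it rose by 1.19 ± 0.21 (SE, limma adjusted p = 0.0057), where 11.6% of probe sets passed, 6.31% higher and 5.27% lower. It entered that test through the Folr1-/- arrays alone, with a mean log2(signal + 16) of 6.05 in Folr1-/- and 4.86 in Folr1+/+ beside a cutoff of 5.26, so the call is no support for a difference. With no filter over genes the adjusted p was 0.017. That call was lost without Folr1-/- replicate 1 (1.28, adjusted p = 0.13), without Folr1-/- replicate 2 (1.10, adjusted p = 0.12) and without Folr1+/+ replicate 3 (1.13, adjusted p = 0.073), although the difference barely moved. The gene table lists 2 pseudogenes of Tdgf1, whose part in the signal was not tested.

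Utf1, a chromatin-bound factor of pluripotent cells and an OCT4 target, had 10.1 and 8.76 in the Folr1-/- arrays, against 7.89, 6.97 and 5.97 in the Folr1+/+ arrays. The groups did not overlap, but all 5 values were under the pseudocount of 16, and with no filter the difference of 0.15 ± 0.16 (SE) did not pass (limma adjusted p = 0.65). Its 95% interval ran from -0.22 to 0.52.

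The promoters of Pou5f1 and Tdgf1, whose groups lay far apart at dim signals, are shown because methylation of CpG sites is part of how pluripotency genes are kept silent. RefSeq promoters of build GRCm38.p6 were matched for 8 of the 9 genes, 13 in all. The lines give the 250 bases before the annotated start, 5′ to 3′ along the gene's strand, with CpG sites in capitals.
Pou5f1, chr17:35505782-35506031, plus strand: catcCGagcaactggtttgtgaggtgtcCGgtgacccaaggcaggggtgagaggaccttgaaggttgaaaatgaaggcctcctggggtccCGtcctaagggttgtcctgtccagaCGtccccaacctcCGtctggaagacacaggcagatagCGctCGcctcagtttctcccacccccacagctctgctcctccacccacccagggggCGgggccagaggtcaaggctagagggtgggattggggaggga
Tdgf1, chr9:110946159-110946408, minus strand: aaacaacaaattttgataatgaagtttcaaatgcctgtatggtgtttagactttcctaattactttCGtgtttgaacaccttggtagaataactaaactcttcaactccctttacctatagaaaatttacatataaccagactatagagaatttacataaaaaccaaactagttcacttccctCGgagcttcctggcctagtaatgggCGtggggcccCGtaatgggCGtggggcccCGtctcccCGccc
The Pou5f1 window holds 8 CpG sites at 62.0% G and C, and the Tdgf1 window 7 at 42.0%. A further annotated start of Pou5f1, not shown, has 6 in its window. Over the 32851 promoter windows of the same length the median was 6 CpG sites, with quartiles of 2 and 16. The GC box GGGCGG, searched on both strands, is in both windows shown and in 32.7% of all windows. The octamer ATGCAAAT, searched on both strands, was in none of the 13 windows and in 1.6% of all. Methylation was not measured here.

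Sall4 encodes a zinc finger factor that acts with OCT4 in the epiblast and is later used in the limb buds, tail and germ cells. Its bright probe set, 1424152_at, had 1679 and 1426 in the Folr1-/- arrays, against 1360, 1613 and 1296 in the Folr1+/+ arrays. These overlap, and the difference of 0.13 ± 0.15 (SE) did not pass (limma adjusted p = 0.63, 95% interval -0.21 to 0.46). Its dimmer probe set, 1424153_s_at, had 122 and 96.0 in the Folr1-/- arrays, against 35.3, 29.9 and 46.9 in the Folr1+/+ arrays. Here the groups were well apart, and the probe set rose by 1.23 ± 0.21 (SE, adjusted p = 0.0042 over probe sets). That call was lost without Folr1-/- replicate 1 (1.08, adjusted p = 0.078). With the mean of both probe sets Sall4 rose by 0.68 (adjusted p = 0.014), so the call for this gene turns on which probe set is read. Probe sets ending in _s_at can hold probes shared by several transcripts.

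**Figure D2:**
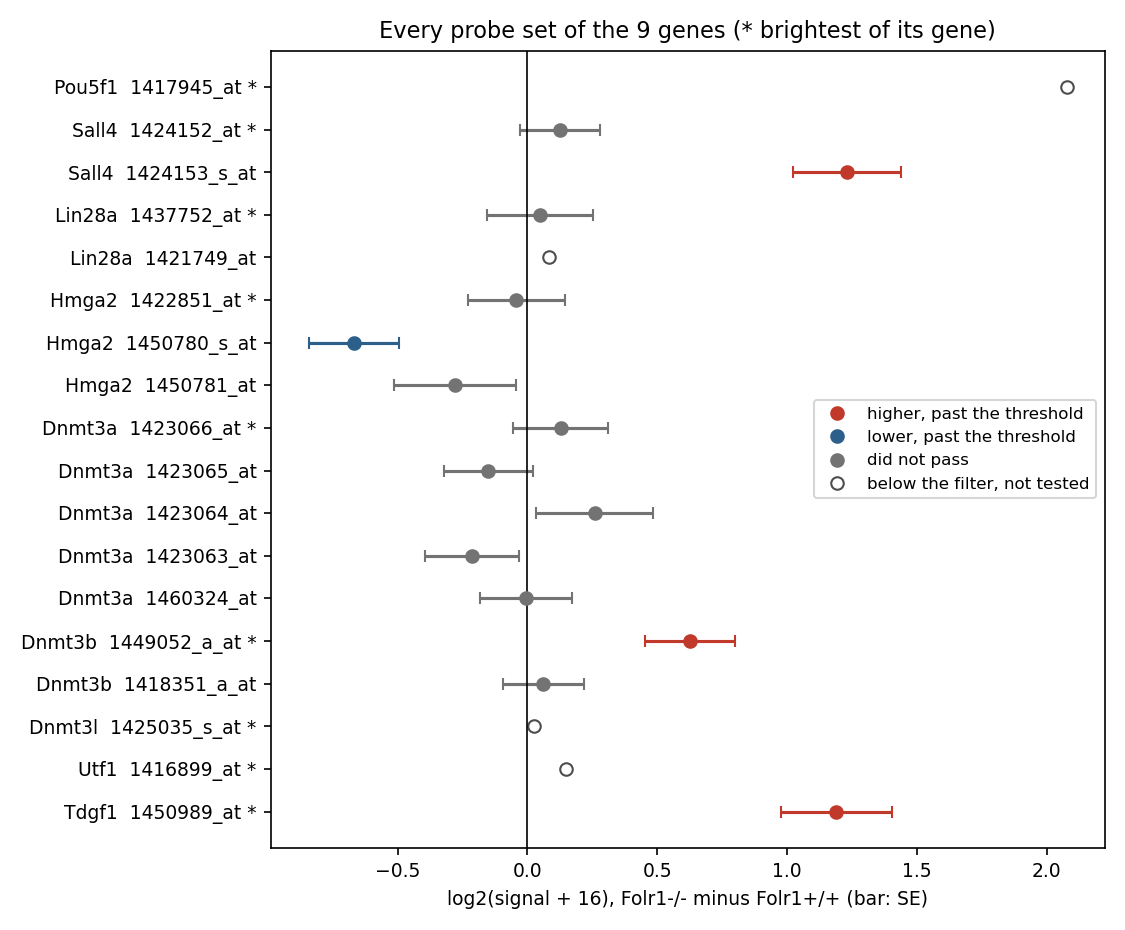
Difference in log2(signal + 16), Folr1-/- minus Folr1+/+, for each of the 18 probe sets (x axis), with SE bars where the probe set passed the filter. Red points (Sall4 1424153_s_at, Dnmt3b 1449052_a_at and Tdgf1) rose, the blue point (Hmga2 1450780_s_at) fell, grey points did not pass and open points were not tested. Tdgf1 entered the test through the Folr1-/- arrays alone.

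The heterochronic genes Lin28a and Hmga2 were bright in all embryos. The probe set of Lin28a used here, 1437752_at, had 690 and 995 in the Folr1-/- arrays, against 804, 978 and 651 in the Folr1+/+ arrays. The groups overlapped fully, with a difference of 0.05 ± 0.20 (SE, limma adjusted p = 0.89) and a 95% interval from -0.39 to 0.49. Its other probe set, 1421749_at, was dim, at 17.9 and 24.5 in the Folr1-/- arrays and 13.5 to 24.9 in the Folr1+/+ arrays, and was not tested. Lin28a thus showed no detectable difference, and its interval leaves room for a change of up to 0.49 upward on the log2 scale.

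Hmga2, an architectural chromatin protein of growing embryonic tissue, had 3 probe sets. The brightest, 1422851_at, had 3139 and 3684 in the Folr1-/- arrays, against 3582, 2759 and 4349 in the Folr1+/+ arrays, a difference of -0.04 ± 0.18 (SE, limma adjusted p = 0.90, 95% interval -0.44 to 0.36) whose sign turned with median centring (0.048) and quantile normalization (0.039). A further one, 1450780_s_at, had 1215 and 1359 in the Folr1-/- arrays, against 1650, 2363 and 2218 in the Folr1+/+ arrays. Every Folr1-/- value there lay under every Folr1+/+ value, and the probe set fell by 0.67 (SE 0.17, adjusted p = 0.031 over probe sets). This call was lost without Folr1-/- replicate 1 (adjusted p = 0.21) or 2 (adjusted p = 0.089), and without Folr1+/+ replicate 2 (adjusted p = 0.065) or 3 (adjusted p = 0.12). The last, 1450781_at, gave 535 and 797 in the Folr1-/- arrays, against 578 to 949 in the Folr1+/+ arrays, and did not pass (-0.28 ± 0.23, adjusted p = 0.48). The gene table lists 1 transcribed pseudogene of Hmga2, whose part in these signals was not tested. No probe set of either heterochronic gene was higher past the threshold.

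Both genes are targets of let-7, whose mature forms share a seed, the bases that pair with target transcripts. The RefSeq sequences of 5 mouse forms are shown with the seed (bases 2 to 8) in capitals, since this is the regulator that Lin28a opposes.
mmu-let-7a-5p: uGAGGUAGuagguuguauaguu
mmu-let-7b-5p: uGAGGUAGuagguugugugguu
mmu-let-7d-5p: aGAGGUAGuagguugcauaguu
mmu-let-7e-5p: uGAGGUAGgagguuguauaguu
mmu-let-7g-5p: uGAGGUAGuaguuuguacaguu
All 5 carry the seed GAGGUAG, and let-7 itself was not measured on these arrays.

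Other genes of the LIN28 and let-7 axis were taken from a list of regulators of let-7 and its known targets. Of 14 tested, 0 rose, 2 fell and 12 did not pass, a share of 14.3% called beside 15% over all genes, and the median difference was -0.35, against -0.02 over all tested genes. The cell cycle gene Ccnd2 had 1147 and 1188.5 in the Folr1-/- arrays, against 2840, 2737 and 2814 in the Folr1+/+ arrays, and fell by 1.25 (SE 0.13, limma adjusted p = 9.6e-05). With the mean of its probe sets the difference was -0.51 and did not pass (adjusted p = 0.13). Tut7, which adds uridines to RNAs including the let-7 precursor, fell by 0.65 (SE 0.18, adjusted p = 0.030), and that call was lost in 8 of 17 other settings. Without Folr1-/- replicate 1 Tut7 had -0.50 (adjusted p = 0.25), and with the mean of its probe sets it had -0.16 (adjusted p = 0.52). The RNA-binding gene Igf2bp1, a let-7 target, had a difference of 0.45 (adjusted p = 0.17), and Igf2bp3 one of -0.25 (adjusted p = 0.25). The list therefore held no gene that was higher past the threshold.

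Among the methyltransferases, Dnmt3b was the only one of the 5 tested members to rise. Its probe set 1449052_a_at had 621 and 831 in the Folr1-/- arrays, against 518, 422 and 446 in the Folr1+/+ arrays, a mean of 726 ± 149 (SD, n = 2) against 462 ± 50.1 (SD, n = 3). The groups did not overlap, and the difference was 0.62 ± 0.17 (SE, limma adjusted p = 0.029 over genes and 0.041 over probe sets). Its other probe set, 1418351_a_at, of about the same brightness, had 509 and 519 in the Folr1-/- arrays, against 556, 435 and 491 in the Folr1+/+ arrays. That probe set overlapped between the groups and gave 0.06 ± 0.16 (SE, adjusted p = 0.83). With the mean of both the difference was 0.34 and did not pass (adjusted p = 0.15). The call of the first probe set was lost without Folr1-/- replicate 2 (0.42, adjusted p = 0.22), without Folr1+/+ replicate 2 (0.56, adjusted p = 0.069), without Folr1+/+ replicate 3 (0.60, adjusted p = 0.097) and with no filter (adjusted p = 0.063). Adjusted over probe sets, the call was also lost without Folr1-/- replicate 1 (0.83, adjusted p = 0.061), with quantile normalization (adjusted p = 0.052), with no intensity trend (adjusted p = 0.068) and with the replicate block (adjusted p = 0.11). Probe sets ending in _a_at read several transcript forms of 1 gene, and which forms each reads was not tested. The gene table lists 1 pseudogene each for Dnmt3b, Dnmt3a and Dnmt3l, whose part in the signals was not tested.

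Dnmt3a had 5 probe sets, and none passed. The brightest, 1423066_at, had 466 and 314 in the Folr1-/- arrays, against 343, 356 and 347 in the Folr1+/+ arrays. The Folr1-/- arrays lay on either side of a tight Folr1+/+ group, and the difference was 0.13 ± 0.18 (SE, limma adjusted p = 0.68, 95% interval -0.26 to 0.52). The other probe sets had differences from -0.21 to 0.26, in both directions. Dnmt3l, a cofactor without catalytic activity that acts in germ cells, had 6.63 and 1.48 in the Folr1-/- arrays, against 3.74, 3.53 and 3.39 in the Folr1+/+ arrays. All 5 values were far under the pseudocount, and with no filter it gave 0.02 ± 0.16 (SE, adjusted p = 0.95).

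The promoter of Dnmt3b is shown for comparison with those of Pou5f1 and Tdgf1, again as the 250 bases before the start with CpG sites in capitals.
Dnmt3b, chr2:153649199-153649448, plus strand: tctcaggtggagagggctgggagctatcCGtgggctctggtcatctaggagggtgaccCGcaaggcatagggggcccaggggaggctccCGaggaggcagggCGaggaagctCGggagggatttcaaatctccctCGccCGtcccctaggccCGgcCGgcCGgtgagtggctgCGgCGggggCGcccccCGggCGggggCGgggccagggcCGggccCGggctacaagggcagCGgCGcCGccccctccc
It holds 21 CpG sites, above the upper quartile of 16 over all windows, and those of Dnmt3a hold 38, 40 and 15 from 3 annotated starts. The 3 windows of Dnmt3l hold 5, 4 and 3, under the median of 6.

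Of the other DNA methylation genes, 9 were tested, 0 rose, 1 fell and 8 did not pass (median -0.20). The 1 was Dnmt1, the maintenance methyltransferase, with 1786 and 1896 in the Folr1-/- arrays, against 2398, 2509 and 2909 in the Folr1+/+ arrays (-0.49 ± 0.14, SE, limma adjusted p = 0.038). Its call was lost in 8 of 17 other settings, among them median centring (-0.40, adjusted p = 0.076) and the fit without Folr1-/- replicate 1 (-0.45, adjusted p = 0.20). Uhrf1, which guides DNMT1 to newly copied DNA, had -0.20 (adjusted p = 0.43) and the 5-methylcytosine oxidase gene Tet1 had -0.61 (adjusted p = 0.11).

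Further genes of the pluripotent epiblast went in both directions. Of 25 on the array only 6 were bright enough to test, and of these 3 rose, 2 fell and 1 did not pass. Tfcp2l1, a factor of naive pluripotency that also serves epithelia, had 106 and 96.2 in the Folr1-/- arrays, against 18.3, 26.3 and 24.1 in the Folr1+/+ arrays (1.60 ± 0.20, SE, limma adjusted p = 0.00031). It entered the test through the Folr1-/- arrays alone, since its Folr1+/+ values lay under the filter cutoff. With no filter its adjusted p in limma was 0.0050. Tbx3 rose by 1.22 ± 0.17 (adjusted p = 0.00052). With the mean of their probe sets Tfcp2l1 had 0.63 and lay below the filter, and Tbx3 had 0.63 (adjusted p = 0.020). Sox2 and Otx2, which after the epiblast stage mark neural tissue, fell by 1.55 and 1.36 on the log2 scale (adjusted p = 0.00030 and 0.00074). Nanog, the partner of OCT4 and SOX2, had 2.43 and 1.37 in the Folr1-/- arrays, against 6.69, 12.5 and 1.31 in the Folr1+/+ arrays, and Fgf5, which marks the primed epiblast, had 3.73 and 2.76, against 2.61 to 4.18. Both overlapped between the groups. Over the 25 genes 12 had a positive difference, and the median was -0.00020, against -0.06 over all genes on the array. With no filter 2 rose and 2 fell.

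Genes of gastrulation and the primitive streak, the stage that follows the epiblast, had 9 tested members, of which 3 rose, 1 fell and 5 did not pass (median 0.67). The 3 were Foxa2, also a gene of the endoderm, at 1.10 ± 0.18 (SE, limma adjusted p = 0.0021), Mixl1 at 0.79 ± 0.22 (adjusted p = 0.031) and the retinoic acid hydroxylase gene Cyp26a1 at 0.67 ± 0.17 (adjusted p = 0.020). Hes7, the somite clock gene, fell by 0.91 (SE 0.22, adjusted p = 0.017). Nodal, the ligand that acts through the product of Tdgf1, had 40.7 and 53.0 in the Folr1-/- arrays, against 33.0, 17.2 and 20.6 in the Folr1+/+ arrays. Its groups did not overlap, but its difference of 0.68 did not pass (adjusted p = 0.072). Without Folr1-/- replicate 1 the calls of Mixl1 (0.92, adjusted p = 0.11), Cyp26a1 (0.74, adjusted p = 0.095) and Hes7 (-0.96, adjusted p = 0.11) were lost. They were also lost without Folr1-/- replicate 2 and without Folr1+/+ replicate 3, and that of Mixl1 without Folr1+/+ replicate 2. With no filter 2 genes of the list rose and 0 fell, with Mixl1 (adjusted p = 0.093) and Hes7 (adjusted p = 0.061) not called.

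Primordial germ cells still express Pou5f1 at this age. Of 7 tested germ cell genes 2 rose, 0 fell and 5 did not pass. Ifitm1 rose by 1.01 ± 0.21 (SE, limma adjusted p = 0.0079) and Ifitm3 by 0.90 ± 0.22 (adjusted p = 0.018). The call of Ifitm1 was lost without Folr1-/- replicate 1 (0.87, adjusted p = 0.11). That of Ifitm3 was lost without Folr1-/- replicate 2 (0.55, adjusted p = 0.21), without Folr1+/+ replicate 3 (0.85, adjusted p = 0.067) and with no filter (adjusted p = 0.065), which left 1 germ cell gene called. Both belong to an interferon-induced family that other cells also express. The germ cell genes Dppa3, Dazl and Ddx4 were dim. Dppa3 had 14.5 and 19.9 in the Folr1-/- arrays, against 19.2 to 23.4 in the Folr1+/+ arrays, and Dazl had 9.83 and 6.02, against 17.8 to 29.5. Ddx4 went the other way, with 19.7 and 20.7 in the Folr1-/- arrays, against 14.3, 1.21 and 13.8 in the Folr1+/+ arrays, and none of these was tested. Kit and Prdm1 had differences of 0.14 and 0.19, with adjusted p = 0.61 and 0.48. Tfap2c and Tdrd7 had 0.16 and 0.19, with adjusted p = 0.65 and 0.58. Alpl went the other way, with 53.0 and 39.8 in the Folr1-/- arrays, against 66.7 to 87.9 in the Folr1+/+ arrays. Its difference of -0.53 did not pass (adjusted p = 0.099). The summed signal of the 12 germ cell genes on the array was 1926 to 2103 in the Folr1-/- arrays and 1116 to 1497 in the Folr1+/+ arrays. Without Ifitm1 the sum of the other 11 was 658 to 729 in the Folr1-/- arrays and 594 to 602 in the Folr1+/+ arrays. That sum still holds Ifitm3, with 95.4 and 164 in the Folr1-/- arrays, against 54.9 to 64.3 in the Folr1+/+ arrays.

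**Figure D3:**
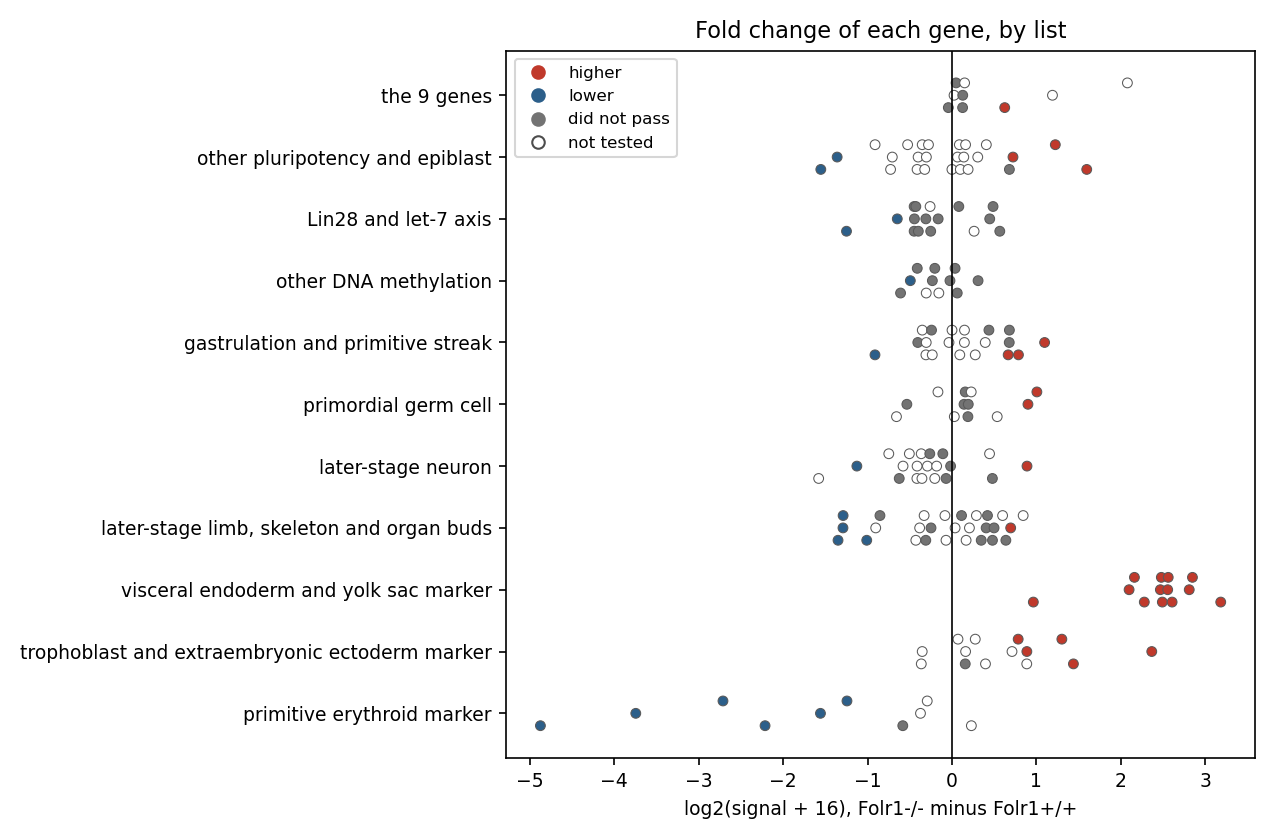
Difference in log2(signal + 16), Folr1-/- minus Folr1+/+ (x axis), of every gene on the array in the 9 genes and in each list, 1 point a gene. Red points rose, blue points fell, grey points did not pass and open points were below the filter; most visceral endoderm markers lie apart to the right and most erythroid markers to the left.

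Markers of other tissues also differed between the groups, in both directions. All 13 visceral endoderm and yolk sac markers on the array rose (median 2.49), led by the apolipoprotein genes Apoa4 (3.18 ± 0.19, SE), Apom (2.85 ± 0.16) and Apoa1 (2.61 ± 0.28) and the protease gene Ctsh (2.81 ± 0.15), and their summed signal was 17519 to 17710 in the Folr1-/- arrays and 2528 to 3540 in the Folr1+/+ arrays. Of 6 tested trophoblast and extraembryonic ectoderm markers 5 rose and 1 did not pass, against 2 called with no filter, 3 with the mean of probe sets or a filter at the 60th percentile, and 2 without Folr1+/+ replicate 3 and 3 or 4 without any other array, with a summed signal over 14 genes of 1614 to 1719 in the Folr1-/- arrays and 587 to 670 in the Folr1+/+ arrays. The placental genes Prl8a2 and Plac1 rose by 1.44 ± 0.38 and 1.30 ± 0.16, and Cdx2, which is also expressed in the tail bud, rose by 0.89 ± 0.23. Prl8a2 had 143 and 34.6 in the Folr1-/- arrays, against 13.6 to 23.2 in the Folr1+/+ arrays, and without Folr1-/- replicate 1 its difference was 0.61 and it lay below the filter. Its call was also lost with no filter (adjusted p = 0.096) and without any 1 of the Folr1+/+ replicates (adjusted p from 0.052 to 0.055). Prl8a2 entered the test through the Folr1-/- arrays alone, since its Folr1+/+ values lay under the filter cutoff. The call of Cdx2 was lost in 5 settings, among them the fit without Folr1-/- replicate 2 (0.61, adjusted p = 0.23) and the mean of its probe sets (0.36, adjusted p = 0.21). The largest change among the 5 was that of Rhox5, a homeobox gene also made in visceral endoderm, with 704 and 736 in the Folr1-/- arrays, against 140, 138 and 105 in the Folr1+/+ arrays. The defining trophoblast genes Elf5 and Tpbpa were dim and overlapped between the groups. Of 7 tested primitive erythroid markers 6 fell and 1 did not pass, among them Hbb-y (-4.87), Hba-x (-2.71) and Hbb-bh1 (-3.74), which encode globins of the embryo, and the anion exchanger gene Slc4a1 (-2.21), and the summed signal of the 10 on the array was 209 to 618 in the Folr1-/- arrays and 5410 to 6325 in the Folr1+/+ arrays. Hba-x, Slc4a1 and the further called markers Alas2 and Klf1 entered the test through the Folr1+/+ arrays alone, since their Folr1-/- values lay under the filter cutoff. With no filter 6 erythroid markers fell. The part of all these markers in the results on the 9 genes was not tested. In whole embryos, more cells of a type and more RNA per cell cannot be told apart.

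Genes that come on in later stages bear on the same question from the other side. Of 8 tested genes of differentiating neurons 1 rose, 1 fell and 6 did not pass (median -0.09). The LIM factor gene Isl1 rose by 0.89 ± 0.18 (SE, limma adjusted p = 0.0058) and Ebf3 fell by 1.13 (SE 0.20, adjusted p = 0.0030). In whole embryos the tissue behind either signal, neuronal or other, was not measured. Ebf3 entered the test through the Folr1+/+ arrays alone, since its Folr1-/- values lay under the filter cutoff. The call of Isl1 was lost without Folr1-/- replicate 1 (0.75, adjusted p = 0.098), and with the mean of its probe sets Ebf3 had -0.65 and lay below the filter. Of the 20 on the array 12 were too dim to test, and over all 20 the median was -0.32, with a positive difference in 3. The largest difference was that of Neurog2 (-1.58, not tested). It had 10.9 and 2.09 in the Folr1-/- arrays, against 39.7, 59.9 and 51.6 in the Folr1+/+ arrays. With no filter 1 neuron gene rose and 2 fell. Of 15 tested genes of limb, skeleton and organ buds 1 rose, 4 fell and 10 did not pass (median 0.11). Prrx1 of limb and facial mesenchyme fell by 1.35, Sox9 and Col2a1 of early cartilage by 1.29 each and the collagen gene Col3a1 by 1.01, with adjusted p from 0.00043 to 0.0021. Msx1, a homeobox gene of the same tissues, rose by 0.70 (adjusted p = 0.039), but its call was lost in 9 of 17 other settings, with no filter (adjusted p = 0.093) and without either Folr1-/- replicate (0.62 without replicate 1, adjusted p = 0.24) among them. With no filter 0 genes of this list rose and 4 fell. With the mean of its probe sets Prrx1 had -0.58 and lay below the filter. Sox9 entered the main test through the Folr1+/+ arrays alone, since its Folr1-/- values lay under the filter cutoff. The limb gene Hoxa11 had 80.3 and 71.5 in the Folr1-/- arrays, against 35.3, 50.4 and 44.2 in the Folr1+/+ arrays, and did not pass (adjusted p = 0.051).

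The tested genes whose pattern over the 5 arrays was closest to each member, by the root mean square difference of log2 values centred on each gene's mean, were Rpl14 (0.055) and Ncoa4 (0.062) for Dnmt3b, Sgf29 (0.018) and Nat8f1 (0.030) for Sall4, Arrdc1 (0.025) and Phf7 (0.040) for Hmga2, Itsn2 (0.033) and Ier3 (0.036) for Dnmt3a and Aebp1 (0.058) and Trappc10 (0.065) for Lin28a.

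**Figure D4:**
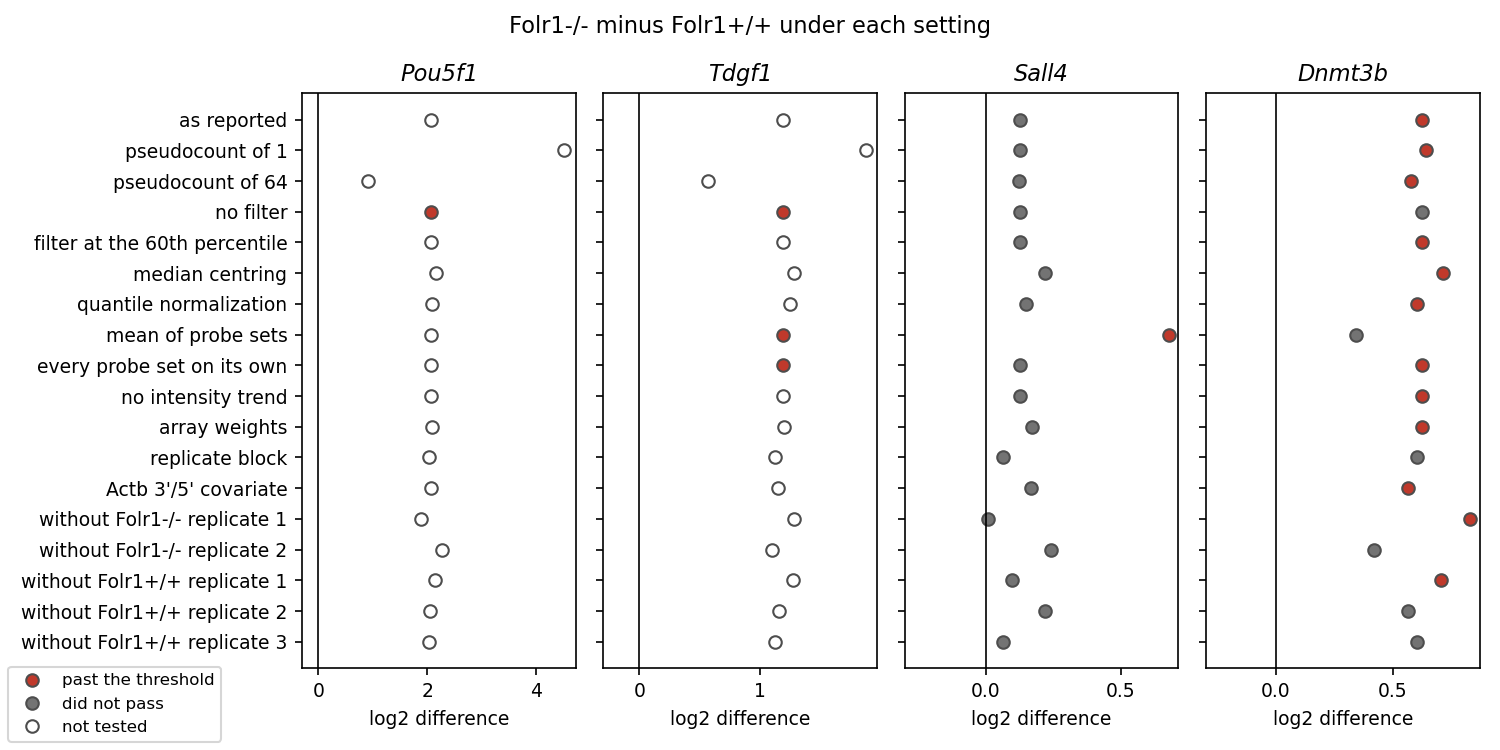
Difference in log2(signal + 16, or another pseudocount where named), Folr1-/- minus Folr1+/+, of Pou5f1, Tdgf1, Sall4 and Dnmt3b under the reported setting and each of the 17 others. All values are above 0. Red points passed the threshold, grey points did not and open points were below the filter, and Dnmt3b passed in 11 of the 17 others. With the mean of probe sets and with every probe set by itself, Tdgf1 entered the test through the Folr1-/- arrays alone.

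The direction of the difference was positive in all 17 other settings for Pou5f1, Tdgf1, Utf1, Sall4 and Dnmt3b, as plotted by setting for 4 of them. Dnmt3b passed in 11 of the 17. For Lin28a the difference was positive in 14, for Dnmt3a in 16 and for Hmga2 in 5.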

How the data were processed

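RNA of 2 Folr1-/- and 3 Folr1+/+ embryo samples was measured on 1 Affymetrix array each. The deposited values are linear MAS5 signals (intensity), 1 per probe set, as the submitters' processing notes name them, without a version. The authors' scaling, a trimmed mean of 150.06 to 150.07 per array, was kept. Detection calls were not used here. The table held 22690 probe sets, 64 of them controls. Gene symbols came from the platform annotation: 20380 probe sets had 1 symbol, 691 several and 1555 none listed, and all 9 members matched the gene table of GRCm38.p6.

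From the authors' signals, log2(signal + 16) was computed and fitted by genotype with lmFit and eBayes (intensity trend, 2-sided) of limma 3.58.1, run in R 4.3.3. The filter at the 40th percentile left out 4957 of 12393 genes. A second fit took every probe set by itself, and others used no filter. The fits have 3 residual degrees of freedom per gene, p-values measure the spread between these arrays, and the number of arrays limits the precision. The code was tested on simulated data. The members and lists were chosen with earlier results of these data known. The text names all members, up to 4 called genes per list by size of change, Folr1 and the 2 genes most like each tested member. Other list genes (Igf2bp1, Igf2bp3, Uhrf1, Tet1, Nanog, Fgf5, Nodal, Dppa3, Dazl, Ddx4, Kit, Prdm1, Tfap2c, Tdrd7, Alpl, Elf5, Tpbpa, Alas2, Klf1, Neurog2, Msx1, Hoxa11) and the sex-linked Xist and Eif2s3y were chosen after their values were seen.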

Additional observations from a re-analysis of the deposited data

How the results depend on the processing

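Precision is limited by 2 and 3 arrays, and dim signals could not be told from background. Of 7436 genes 1114 changed, 609 higher and 505 lower, against 769 higher and 341 lower with median centring. Leaving out 1 array gave 367 to 1023 changed genes. The lowest counts were 367 (348 shared with the 1114) for Folr1-/- replicate 1, 639 (625 shared) for Folr1+/+ replicate 3 and 661 (586 shared) for Folr1-/- replicate 2. Of the 9 genes 1 changed (Dnmt3b), against 2 with no filter (Pou5f1, Tdgf1) and 2 with the mean of probe sets (Sall4, Tdgf1). With every probe set by itself 2 changed (Dnmt3b, Tdgf1). In that setting and with the mean of probe sets, Tdgf1 entered the test through the Folr1-/- arrays alone. The number was 0 to 1 with a Folr1+/+ array left out. It was 0 in limma without Folr1-/- replicate 2 (0 members at an unadjusted p under 0.05) and without Folr1+/+ replicate 2 or 3 (1 member each). Replicate numbers 1 and 2 are shared by the groups, and deviations of same-numbered arrays correlated at 0.019 and -0.056. With 2 Folr1-/- arrays their deviations mirror each other, so these values cannot show whether same-numbered samples were paired. With the replicate block 899 genes and 0 members changed in limma (1 member at an unadjusted p under 0.05), Dnmt3b had 0.60 (adjusted p = 0.059), and Tdgf1 with no filter had 1.13 (adjusted p = 0.067). The block gave -0.096 for Lin28a and 0.11 for Hmga2, neither past the threshold.

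Other changed values follow. Pou5f1 had 4.51 and 0.91 with pseudocounts of 1 and 64, Tdgf1 1.88 and 0.57, and Utf1 0.40 and 0.050. Utf1 had 0.24 with median centring and 0.25 with quantile normalization, and Hmga2 0.048 and 0.039. With no filter Dnmt3b had 0.62 (adjusted p = 0.063) and Pou5f1 and Tdgf1 passed (2.08 and 1.19). With the mean of probe sets Dnmt3b had 0.34, Sall4 0.68 and Tdgf1 1.19, and with every probe set by itself Tdgf1 had 1.19. Leaving out arrays gave 1.89 to 2.27 for Pou5f1, 1.10 to 1.28 for Tdgf1, 0.42 to 0.83 for Dnmt3b, -0.21 to 0.31 for Lin28a, -0.21 to 0.11 for Hmga2, -0.15 to 0.40 for Dnmt3a and -0.16 to 0.21 for Dnmt3l. Folr1 had 0.025 with median centring and -0.17 to 0.032 over the arrays left out. Of 31 named genes outside the 9, 20 kept their call in every setting that tested them and 11 lost it in at least 1. Of the 20, Tfcp2l1, Ebf3, Sox9, Hba-x and Slc4a1 entered the main test through 1 group of arrays alone. The added fits with no filter and on probe sets, chosen after seeing the data, left the probe set calls of Hmga2 and Dnmt3b with an adjusted p of 0.063 and 0.068 with no intensity trend. The causes were not tested.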
